A study of Mus musculus with 10 samples.

Results

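Collagens form the main protein scaffold between cells. Each collagen molecule is a triple helix of 3 chains, and each chain is encoded by its own gene. Fibrillar collagens pack into the cables that give tissue its strength, type IV collagen forms the sheet-like network of basement membranes, and the remaining types decorate fibrils, form beaded filaments or span the cell membrane. In healthy liver most fibrillar collagen comes from stellate cells and portal fibroblasts, type IV collagen comes largely from stellate and endothelial cells, and hepatocytes are a known source of type XVIII collagen.

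The collagen genes described here were all protein-coding rows of the count table whose symbol begins with Col and a number, 45 of 54532 genes. One of them, Col4a3bp, encodes a ceramide transfer protein and not a collagen, and it was kept apart, which left 44 collagens: 11 fibrillar, 6 of type IV (the basement membrane class) and 27 others. RNA was sequenced from whole liver of 5 mice given napabucasin and 5 given vehicle. Napabucasin (BBI608), a quinone described as an inhibitor of STAT3, was dosed daily into the stomach at 20 mg/kg for 7 days, and vehicle mice received 1% sodium carboxymethyl cellulose (NaCMC) by the same gavage route and schedule. The labels name no engineered allele in either group, and they leave out strain, sex and age. Libraries are labelled as biological replicates without naming the animals, so the p-values describe variation among libraries only.

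Library totals ran from 14124484 to 17759967 counts, and the 44 collagens took 0.0854% to 0.199% of them. The liver label fits the hepatocyte markers, with albumin (Alb) alone at 11853 to 54010 FPKM. Levels are given in FPKM, the deposited reads scaled to gene length and to 1 constant per library, so that levels of different genes can be compared. That constant was not the library total: it came to 0.843 of the total in vehicle replicate 1, 1.25 in vehicle replicate 2 and 0.896 to 1.12 in the others, which lowers the values of vehicle replicate 2 against those of vehicle replicate 1. The TMM library sizes of edgeR were 0.828 and 1.23 of the total in these 2 libraries. Vehicle replicate 1 and napabucasin replicate 1 stood apart by their mitochondrial share of counts, 19.0% and 19.9%, against 7.03% to 15.3% in the other 8 libraries. Ribosomal RNA took 1.09% of counts in napabucasin replicates 1 and 2 and 0.912% in vehicle replicate 2, against 0.195% to 0.455% in the other 7. Vehicle replicate 2 also had the lowest sum of hepatocyte markers, 20697 FPKM against 54705 to 74143 FPKM in the other vehicle libraries.

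No collagen passed the adjusted threshold, while 15 collagens lay higher in napabucasin livers at an unadjusted p under 0.05 and none lay lower. The edgeR quasi-likelihood test, run over 14244 genes, called 0 genes at an adjusted p under 0.05, which is 0% of those tested, where DESeq2 called 242 genes and limma-voom 132. A total of 26 collagens had enough reads to be tested, and 15 of them, 57.7%, were higher at an unadjusted p under 0.05, where 9.34% of all genes tested were. For lower genes the share was 5.83% of all genes tested and 0 of 26 collagens. Col9a3, among the 15, passed the filter on low counts through the napabucasin libraries, where it was higher. The sign alone was positive for 24 of the 26, against 50.1% of all genes tested. The median log2 fold change over the 26 was 0.64, beside 0.00 over all genes tested. DESeq2 called 2 collagens at an adjusted p under 0.05, Col14a1 (adjusted p = 0.0209) and Col27a1 (adjusted p = 0.0144), and limma-voom called 0. With limma-voom 8 collagens were higher at an unadjusted p under 0.05, where 11.3% of all genes tested were. The genes without a filter on low counts numbered 26567, of which 40 were collagens, and there 15 collagens lay on the higher side and 2 on the lower by the same unadjusted criterion. Of the 26567 genes, 1682 lay on the higher side and 1412 on the lower by that criterion. The 2 lower collagens, Col25a1 and Col17a1, held 48 and 6 reads in all.

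**Figure D1:**
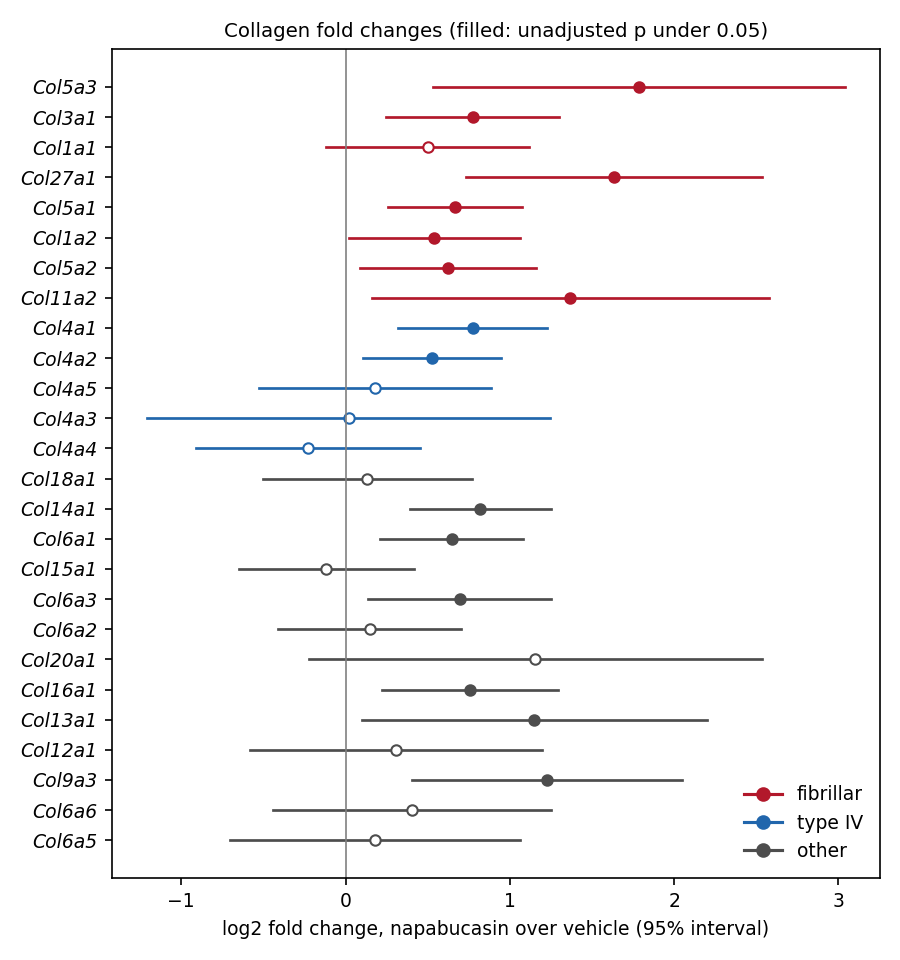
Log2 fold change of the 26 tested collagens, napabucasin over vehicle, with 95% intervals from the edgeR fit; colours give the class and filled points have an unadjusted p under 0.05. Of the 8 fibrillar genes 7 points are filled, of the 5 type IV genes 2, and of the 13 others 6.

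Of the 11 fibrillar collagens 8 were tested, and all 8 lay higher in napabucasin livers, where 50.1% of all genes tested did. With an unadjusted p under 0.05, 7 did so, against 9.34% of all genes tested, and the median log2 fold change was 0.72. The fitted folds were 1.41 to 1.71 for Col1a1, Col1a2, Col3a1, Col5a1 and Col5a2, the chains that make up fibrils of soft organs, and 2.58 to 3.45 for Col11a2, Col27a1 and Col5a3. Type I and type III collagen are the chief fibril formers of liver, and type V nucleates fibrils and limits their width.

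Col3a1, the single chain of type III collagen (chromosome 1, 45311538 to 45349706, GRCm38), measured 6.31, 3.06, 3.64, 7.42 and 3.72 FPKM in vehicle replicates 1 to 5 and 9.07, 7.57, 6.80, 9.72 and 7.82 FPKM in napabucasin replicates 1 to 5. All napabucasin libraries lay above every vehicle library except replicate 4, which lay above the lowest of them. Its log2 fold change was 0.77 (adjusted p = 0.237 by edgeR, SE 0.25). Col5a1 (chromosome 2, 27886425 to 28039514) measured 1.88, 1.23, 1.56, 1.71 and 1.27 FPKM in vehicle and 2.05, 2.36, 1.99, 3.13 and 2.52 FPKM in napabucasin libraries. Its groups did not overlap, and the log2 fold change was 0.67 (adjusted p = 0.221 by edgeR, SE 0.19). Groups that do not overlap, with napabucasin higher, were found for 2 of the 26 collagens, Col5a1 and Col9a3, and for 1.22% of all genes tested. With napabucasin lower they were found for 0 collagens and 0.955% of all genes. Col9a3 passed the filter on low counts through the napabucasin libraries. Col5a2, the partner chain of Col5a1 in type V (chromosome 1, 45374321 to 45503282), measured 0.586, 0.375, 0.605, 0.851 and 0.365 FPKM in vehicle and 0.837, 0.895, 0.911, 0.929 and 0.696 FPKM in napabucasin libraries. Only vehicle replicate 4 reached the napabucasin range, and the log2 fold change was 0.63 (adjusted p = 0.291 by edgeR, SE 0.25).

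The chains of type I collagen showed smaller differences with more overlap. Col1a1 (chromosome 11, 94936224 to 94953042) measured 2.70, 1.15, 1.70, 3.01 and 1.93 FPKM in vehicle and 2.01, 2.15, 2.44, 4.32 and 3.79 FPKM in napabucasin libraries. Napabucasin replicates 4 and 5 lay above every vehicle library and the other 3 lay inside the vehicle range. The log2 fold change of Col1a1 was 0.50 (95% limits -0.12 and 1.12, edgeR adjusted p = 0.409), the only tested fibrillar gene with an unadjusted p above 0.05. With the replicate number as a block, Col1a1 had an unadjusted p of 0.0370 by edgeR and Col11a2 one of 0.0681, so the fibrillar gene above 0.05 was then Col11a2. Col1a2 (chromosome 6, 4504814 to 4541544) measured 1.74, 1.02, 1.24, 2.10 and 1.23 FPKM in vehicle and 1.50, 1.84, 1.87, 3.16 and 2.22 FPKM in napabucasin libraries. Its log2 fold change was 0.54 (adjusted p = 0.319 by edgeR, SE 0.24) and 0.35 without napabucasin replicate 4, the highest library for both chains.

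The 3 remaining fibrillar genes had the largest folds of the class and the widest spread between napabucasin libraries. Col5a3, another type V chain of narrow tissue range (chromosome 9, 20770050 to 20815067), measured 6.04, 3.11, 1.96, 2.68 and 1.73 FPKM in vehicle and 27.6, 9.202, 2.94, 2.43 and 10.8 FPKM in napabucasin libraries. Napabucasin replicates 1, 2 and 5 exceeded all vehicle libraries, and replicates 3 and 4 lay within the vehicle range. The log2 fold change was 1.79 (adjusted p = 0.246 by edgeR, SE 0.58), and 1.04 without napabucasin replicate 1. Col27a1, a fibrillar collagen best known from cartilage (chromosome 4, 63214004 to 63334991), measured 1.89, 0.683, 0.668, 0.970 and 0.884 FPKM in vehicle and 6.21, 2.47, 1.39, 1.57 and 3.97 FPKM in napabucasin libraries. Each napabucasin library lay above vehicle replicates 2 to 5, and vehicle replicate 1 lay above napabucasin replicates 3 and 4. Its log2 fold change of 1.63 (adjusted p = 0.201 by edgeR, SE 0.42) was 1.22 without napabucasin replicate 1. Col11a2, a chain of cartilage fibrils (chromosome 17, 34039437 to 34066685), measured 0.246, 0.276, 0.197, 0.196 and 0.181 FPKM in vehicle and 1.43, 0.7104, 0.105, 0.208 and 0.365 FPKM in napabucasin libraries. Its lowest and highest libraries were both from napabucasin mice, and its log2 fold change of 1.37 (adjusted p = 0.300 by edgeR, SE 0.56) was 0.66 without napabucasin replicate 1. Chondrocyte markers summed to 1.85 to 3.42 FPKM in vehicle and 1.53 to 2.56 FPKM in napabucasin livers, with Matn1 and Matn3 at 0 in every library. Most of these sums was Sox9, with group means of 2.54 and 1.91 FPKM, a gene also counted among the cholangiocyte markers. Hapln1 had means of 0.104 and 0.170 FPKM, and Acan and Comp were lower, so the sums are not a level of chondrocytes.

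**Figure D2:**
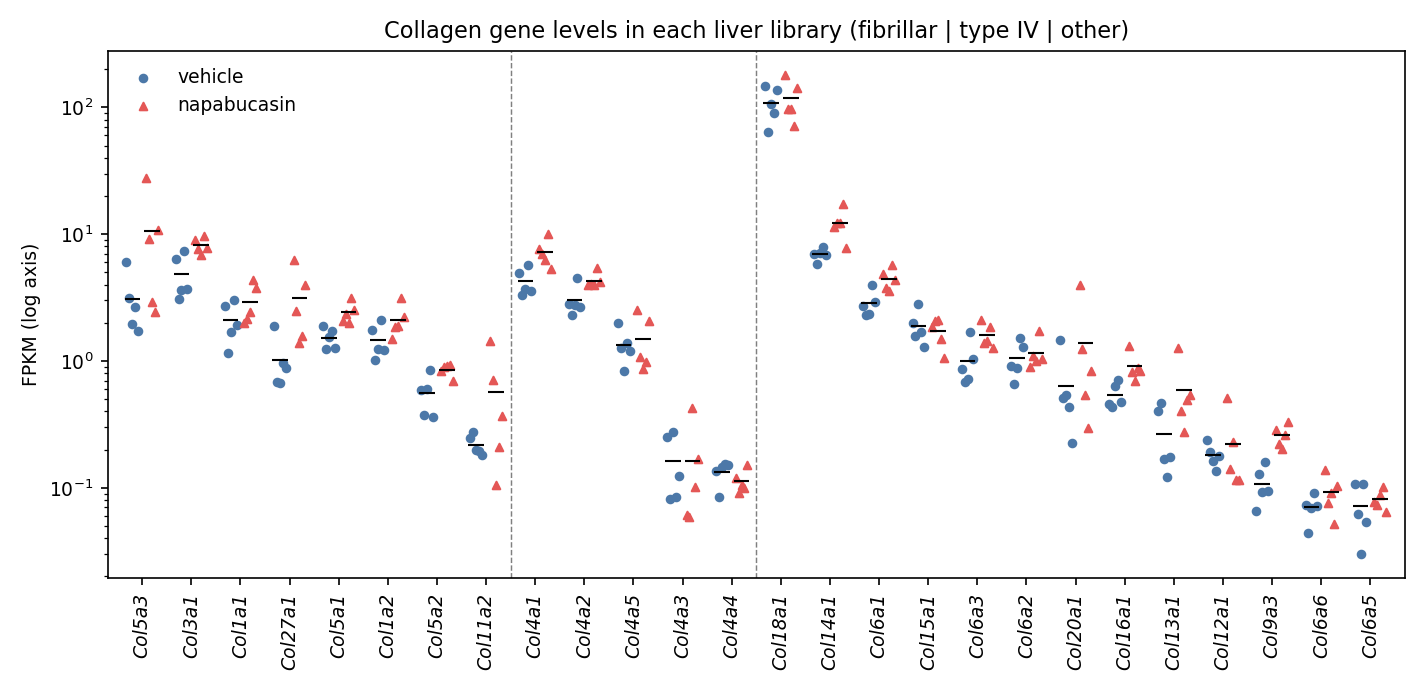
FPKM of the 26 tested collagens in each library on a log axis, vehicle as circles and napabucasin as triangles, with a black line at each group mean; dashed lines divide fibrillar, type IV and other collagens. Col18a1 lies above every other collagen, and the spread of Col5a3, from 2.43 to 27.6 FPKM among napabucasin libraries, is the widest of the fibrillar genes with a mean above 1 FPKM.

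The promoters of 4 collagens are shown because they belong to genes that peaked in different libraries: Col3a1 and Col5a1 were highest in napabucasin replicate 4, and Col5a3 and Col13a1 in napabucasin replicate 1. Each is the 250 bases before the transcription start in RefSeq (GRCm38.p6), 5′ to 3′ on the strand of the gene, and none overlaps an annotated exon of GENCODE M21. Capitals mark matches on either strand to TATAAA for the TATA box, to CCAAT for the box of that name, to GGGCGG for the GC box, or to TTCNNNGAA for a pair of STAT half-sites.
Col3a1, chr1:45311288-45311537, plus strand: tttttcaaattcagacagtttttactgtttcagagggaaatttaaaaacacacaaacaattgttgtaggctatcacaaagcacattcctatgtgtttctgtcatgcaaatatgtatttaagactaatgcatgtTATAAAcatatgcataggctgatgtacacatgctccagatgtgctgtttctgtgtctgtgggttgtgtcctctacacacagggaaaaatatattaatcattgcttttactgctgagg
Col5a1, chr2:27886175-27886424, plus strand: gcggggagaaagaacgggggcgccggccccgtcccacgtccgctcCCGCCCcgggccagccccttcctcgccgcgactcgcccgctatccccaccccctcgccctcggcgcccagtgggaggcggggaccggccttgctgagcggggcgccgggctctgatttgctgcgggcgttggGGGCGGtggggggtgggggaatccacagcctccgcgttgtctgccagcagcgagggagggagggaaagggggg
Col5a3, chr9:20815068-20815317, minus strand: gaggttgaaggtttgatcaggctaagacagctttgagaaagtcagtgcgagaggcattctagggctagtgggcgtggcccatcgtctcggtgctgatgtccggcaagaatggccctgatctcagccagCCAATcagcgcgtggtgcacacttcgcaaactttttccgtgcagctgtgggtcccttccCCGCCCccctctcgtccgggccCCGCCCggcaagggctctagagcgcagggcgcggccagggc
Col13a1, chr10:61979109-61979358, minus strand: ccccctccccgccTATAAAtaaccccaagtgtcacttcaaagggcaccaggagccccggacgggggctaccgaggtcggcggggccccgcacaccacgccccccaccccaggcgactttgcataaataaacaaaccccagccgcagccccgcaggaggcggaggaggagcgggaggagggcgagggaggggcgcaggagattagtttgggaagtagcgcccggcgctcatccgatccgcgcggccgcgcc
GC content was 35.2% in the Col3a1 window and 76.4%, 62.8% and 68.8% in those of Col5a1, Col5a3 and Col13a1. Col3a1 held a TATA match beginning 117 bases before the start, Col13a1 one at 237 bases, Col5a1 GC boxes at 205 and 73 bases, and Col5a3 a CCAAT box at 122 bases and GC boxes at 63 and 41 bases. The STAT half-site pair was in none of the 4 windows. RefSeq windows were matched for 35 of the 44 collagens, 38 windows in all. The STAT pair was found in 2 of the 38, or 5.26%, and in 7.02% of the 32851 windows of all genes. For the TATA box these shares were 13.2% and 12.4%, for the CCAAT box 34.2% and 33.8%, and for the GC box 57.9% and 32.7%. A match is a run of letters and not a shown binding site.

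Type IV collagen, the network of basement membranes, lay higher in its Col4a1 and Col4a2 chains, while the other tested chains had intervals that span 0. All tested chains, Col4a1 and Col4a2 among them, overlapped between groups. Of 6 genes 5 were tested, and 2 were higher at an unadjusted p under 0.05, where 9.34% of all genes tested were. The class median was a log2 fold change of 0.18. Col4a1 and Col4a2 supply the chains of the common type IV molecule, whereas Col4a3, Col4a4 and Col4a5 build a network known from the kidney filter.

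Col4a1 (chromosome 8, 11198423 to 11312826) measured 4.98, 3.29, 3.72, 5.73 and 3.59 FPKM in vehicle and 7.60, 7.01, 6.23, 10.03 and 5.33 FPKM in napabucasin libraries. One napabucasin library, replicate 5, fell inside the vehicle range. Its log2 fold change was 0.77 (adjusted p = 0.221 by edgeR, SE 0.21). Col4a2 (chromosome 8, 11312805 to 11449287) measured 2.80, 2.32, 2.75, 4.52 and 2.65 FPKM in vehicle and 3.97, 4.05, 3.95, 5.37 and 4.20 FPKM in napabucasin libraries. Vehicle replicate 4 alone overlapped the napabucasin values, and the log2 fold change was 0.53 (adjusted p = 0.277 by edgeR, SE 0.20). The pair stands head to head on opposite strands and shares 22 bases at the starts, where reads of the 2 genes cannot be told apart without strand.

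Col4a5 (chromosome X, 141475385 to 141689234) measured 1.97, 1.26, 0.832, 1.39 and 1.20 FPKM in vehicle and 2.52, 1.07, 0.865, 0.973 and 2.07 FPKM in napabucasin libraries. Napabucasin replicates 1 and 5 lay above every vehicle library and the other 3 lay inside the vehicle range, with a log2 fold change of 0.18 (95% limits -0.52 and 0.89). Col4a3 and Col4a4 were low, at 0.164 ± 0.094 and 0.134 ± 0.028 FPKM in vehicle and 0.163 ± 0.154 and 0.113 ± 0.024 FPKM in napabucasin livers (SD, n = 5 each). Their log2 fold changes were 0.02 (95% limits -1.21 and 1.25) and -0.23 (95% limits -0.91 and 0.46). Col4a6 held 78 reads over all libraries and was not tested.

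Fibril-associated collagens, which sit on the surface of fibrils and link them to other matrix, had 5 of 9 genes tested. Of these, 3 were higher at an unadjusted p under 0.05, where 9.34% of all genes tested were. The median log2 fold change was 0.82. Col14a1, which binds fibrils together with the proteoglycan decorin (chromosome 15, 55307750 to 55520803), had the smallest p of the collagens in the edgeR fit, while Col27a1 had the smaller p with DESeq2, with the replicate block and with library size as the only scaling. It measured 7.01, 5.78, 7.12, 7.90 and 6.89 FPKM in vehicle and 11.4, 12.2, 12.2, 17.3 and 7.72 FPKM in napabucasin libraries. The vehicle values were close together, and only napabucasin replicate 5 fell among them. The log2 fold change was 0.82 (adjusted p = 0.185 by edgeR, SE 0.20). Col16a1 (chromosome 4, 130047840 to 130099283) measured 0.460, 0.433, 0.639, 0.704 and 0.475 FPKM in vehicle and 1.32, 0.814, 0.697, 0.874 and 0.839 FPKM in napabucasin libraries, a log2 fold change of 0.76 (adjusted p = 0.248 by edgeR, SE 0.25). Vehicle replicate 4 was the 1 library that overlapped.

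Col9a3, a chain of type IX collagen known from cartilage (chromosome 2, 180597790 to 180622189), was scarce but did not overlap between groups. It held 3, 11, 5, 11 and 5 reads in vehicle and 18, 16, 14, 19 and 19 in napabucasin libraries. It passed the filter on low counts through the napabucasin group, so its lack of overlap is not independent of that filter. It measured 0.0654, 0.128, 0.0918, 0.160 and 0.0945 FPKM in vehicle and 0.284, 0.221, 0.201, 0.260 and 0.332 FPKM in napabucasin libraries, a log2 fold change of 1.23 (adjusted p = 0.233 by edgeR, SE 0.38) that rests on 121 reads in all. Col20a1 (chromosome 2, 180986535 to 181018363) measured 1.45, 0.507, 0.536, 0.435 and 0.227 FPKM in vehicle and 4.01, 1.24, 0.538, 0.297 and 0.839 FPKM in napabucasin libraries. The highest library of each group was its replicate 1. Its log2 fold change of 1.16 (95% limits -0.22 and 2.53) was 0.23 without napabucasin replicate 1. Another gene on the same strand, 9230112E08Rik, overlaps Col20a1. Col12a1 had a log2 fold change of 0.31 (95% limits -0.58 and 1.19), and -0.26 without napabucasin replicate 1.

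Type VI collagen forms beaded filaments near cell surfaces, and its common molecule holds 1 chain each of Col6a1, Col6a2 and Col6a3. Of 6 genes 5 were tested and 2 were higher at an unadjusted p under 0.05, where 9.34% of all genes tested were. The median log2 fold change was 0.40. Col6a1 (chromosome 10, 76708792 to 76726168) measured 2.72, 2.31, 2.33, 3.98 and 2.94 FPKM in vehicle and 4.84, 3.74, 3.55, 5.72 and 4.35 FPKM in napabucasin libraries, a log2 fold change of 0.65 (adjusted p = 0.234 by edgeR, SE 0.20). Vehicle replicate 4 again was the only vehicle library within the napabucasin range. Col6a3 (chromosome 1, 90765923 to 90843971) measured 0.870, 0.676, 0.721, 1.70 and 1.04 FPKM in vehicle and 2.10, 1.39, 1.44, 1.86 and 1.26 FPKM in napabucasin libraries, a log2 fold change of 0.69 (adjusted p = 0.278 by edgeR, SE 0.26). Col6a2 (chromosome 10, 76595762 to 76623630) had a smaller fold and wide overlap. Its values were 0.918, 0.653, 0.875, 1.51 and 1.29 FPKM in vehicle and 0.898, 1.09, 0.990, 1.73 and 1.04 FPKM in napabucasin libraries, a log2 fold change of 0.15 (95% limits -0.41 and 0.70). The rarer Col6a5 and Col6a6 had log2 fold changes of 0.18 and 0.40, neither with an unadjusted p under 0.05.

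Col18a1 was the most abundant collagen of the liver, and no difference between groups was detected. It encodes type XVIII collagen, a basement membrane proteoglycan whose end fragment is endostatin (chromosome 10, 77052178 to 77166548). It measured 146, 63.5, 106, 90.8 and 137 FPKM in vehicle and 181, 97.1, 97.4, 71.1 and 143 FPKM in napabucasin libraries. The ranges overlapped widely, and the log2 fold change of 0.13 (95% limits -0.50 and 0.77) was -0.08 without napabucasin replicate 1 and -0.01 without vehicle replicate 2. Col18a1 took 46.8% to 78.4% of all collagen counts of a library. Col15a1, its relative of vessel walls (chromosome 4, 47208161 to 47313167), measured 2.01, 1.58, 2.82, 1.69 and 1.28 FPKM in vehicle and 1.84, 2.07, 2.12, 1.50 and 1.06 FPKM in napabucasin libraries, a log2 fold change of -0.12 (95% limits -0.65 and 0.42). The sum over all collagens other than Col18a1 was 39.8 ± 8.71 FPKM in vehicle and 69.4 ± 15.8 FPKM in napabucasin livers (SD, n = 5 each). These sums ran from 31.2 to 49.9 FPKM in vehicle and from 52.7 to 94.5 FPKM in napabucasin libraries and did not overlap, nor did they with counts scaled to library totals. With Col18a1 included they were 148 ± 37.5 and 187 ± 54.9 FPKM and overlapped. Leaving out the most abundant collagen, which showed no detected difference, favours a separation of the sums. The lack of overlap is therefore not separate support for a difference.

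Among the transmembrane collagens only Col13a1, best known from the junction of nerve and muscle (chromosome 10, 61838236 to 61979108), had enough reads to be tested. It measured 0.401, 0.468, 0.169, 0.121 and 0.174 FPKM in vehicle and 1.25, 0.405, 0.276, 0.492 and 0.541 FPKM in napabucasin libraries, a log2 fold change of 1.15 (adjusted p = 0.312 by edgeR, SE 0.49) that was 0.67 without napabucasin replicate 1. In all, 18 collagens were below the filter on low counts, with 0 to 130 reads each over the 10 libraries. They were Col24a1, Col23a1, Col7a1, Col8a1, Col4a6, Col8a2, Col25a1, Col10a1, Col28a1, Col9a2, Col19a1, Col22a1, Col17a1 and Col6a4, and Col2a1, Col9a1, Col11a1 and Col26a1, which had 0 reads. With 163387592 counts in all, 0 reads allows a level of up to 0.0184 CPM, counts scaled to library size, a limit for counting error only. Col4a3bp measured 5.34 ± 0.791 FPKM in vehicle and 4.92 ± 0.931 FPKM in napabucasin livers (SD, n = 5 each).

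The highest library of most collagens was 1 of 2 napabucasin libraries. Of the 26 tested collagens 11 were highest in napabucasin replicate 1, among them Col5a3, Col27a1, Col11a2, Col20a1, Col13a1 and Col18a1, and 10 were highest in napabucasin replicate 4, among them Col1a1, Col1a2, Col3a1, Col5a1, Col5a2, Col4a1, Col4a2, Col14a1 and Col6a1. These counts of 11 and 10 were the same with counts scaled to library totals or to TMM library sizes. The lowest library depended on the scaling: vehicle replicate 2 was lowest for 14 of the 26 by FPKM, 12 by TMM library size and 2 by library total. Napabucasin replicate 1 also held the highest mitochondrial share, 19.9%, and napabucasin replicate 4 the highest summed level of stellate cell markers, 170 FPKM against 76.0 to 122 FPKM in the other 9 libraries.

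**Figure D3:**
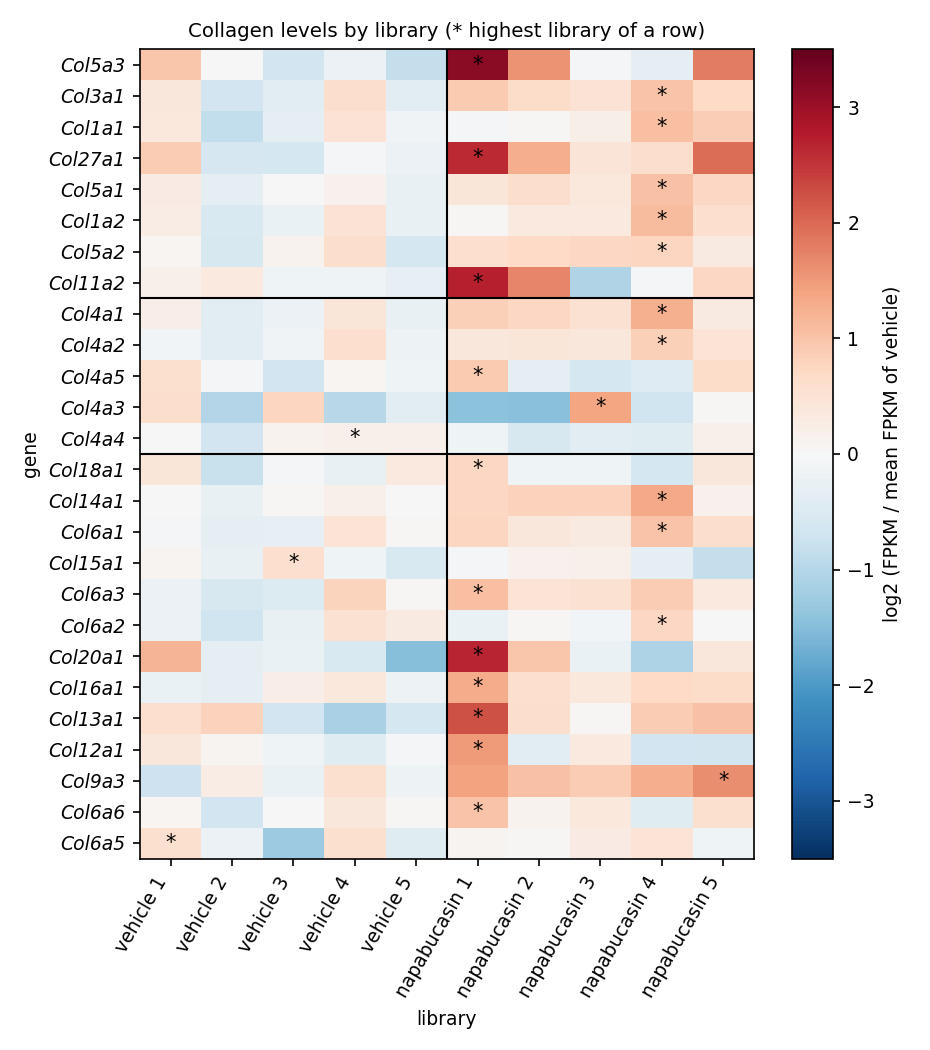
Level of each tested collagen in each library as log2 of FPKM over the vehicle mean of that gene, with a star on the highest library of each row and lines between classes and groups. Stars fall on napabucasin replicate 1 in 11 rows and on napabucasin replicate 4 in 10.

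Single libraries changed which collagens had an unadjusted p under 0.05 but not their sign. With 1 library left out at a time, all 15 stayed on the higher side in every one of the 10 fits, and 9 kept an unadjusted p under 0.05 in all 10: Col14a1, Col27a1, Col4a1, Col5a1, Col9a3, Col6a1, Col3a1, Col16a1 and Col6a3. The 15 were chosen by their p in the fit of all libraries, and these fits reuse most of the same libraries. Their kept sign and p are therefore not separate support for a difference. Col5a3 lost it without napabucasin replicate 1, Col4a2 without napabucasin replicate 4, and Col5a2 without vehicle replicate 2 or 5. Col11a2 lost it in 5 fits, Col13a1 in 4 and Col1a2 in 5. With the mitochondrial share of counts as a covariate, a fit chosen after the data were seen, 12 of the 15 kept it; Col5a3 had a log2 fold change of 0.83 there, Col27a1 of 1.14 and Col11a2 of 0.38, while Col14a1 had 0.84 and Col4a1 0.72. Without both replicate 1 libraries 11 of the 15 kept it. Of all 26 collagens tested, 12 were higher by this criterion with the covariate, where 6.30% of all genes tested were. Without both replicate 1 libraries 12 of 26 were, where 7.44% of all genes tested were. Col9a3, among the 9 kept in all 10 fits, passed the filter on low counts through the napabucasin libraries.

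**Figure D4:**
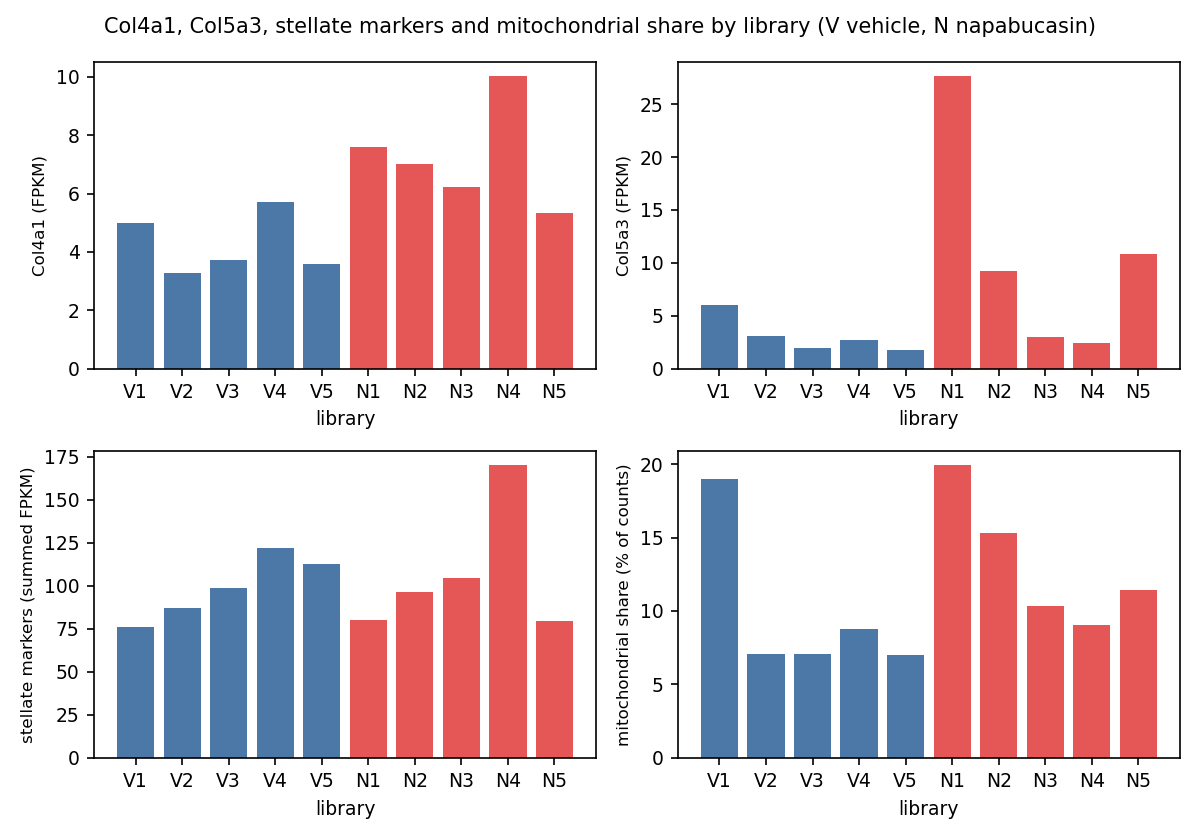
Bars from 0 for Col4a1 and Col5a3 (FPKM), the summed FPKM of 12 stellate cell markers and the mitochondrial share of counts (percent) in vehicle (V1 to V5) and napabucasin (N1 to N5) libraries. Col4a1 and the stellate sum peak in N4 at 10.03 and 170 FPKM, and Col5a3 and the mitochondrial share peak in N1 at 27.6 FPKM and 19.9%.

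Ratios between chains that share a molecule or a fibril were compared in 4 pairs, and no p passed 0.05 after adjustment over the 4. The ratio of Col1a1 to Col1a2 was 1.41 ± 0.179 in vehicle and 1.38 ± 0.198 in napabucasin livers (SD, n = 5 each; exact two-sided permutation p = 0.770, adjusted p = 0.770). For Col1a1 to Col3a1 it was 0.439 ± 0.056 and 0.359 ± 0.109 (exact permutation p = 0.183, adjusted p = 0.243), and the lowest value, 0.222, was in napabucasin replicate 1. For Col4a1 to Col4a2 it was 1.43 ± 0.199 and 1.67 ± 0.261 (exact permutation p = 0.159, adjusted p = 0.243). The ratio of Col6a1 to Col6a2 had the smallest p. It was 2.97, 3.53, 2.66, 2.64 and 2.27 in vehicle and 5.39, 3.43, 3.58, 3.295 and 4.17 in napabucasin libraries, 2.81 ± 0.472 and 3.98 ± 0.860 (exact permutation p = 0.0238, adjusted p = 0.0952). Vehicle replicate 2 was the only vehicle library within the napabucasin range. The smallest p that this design allows is 0.0079. The ratios scale with the gene lengths of the table, 6563 bases for Col1a1 and 12426 for Col1a2, so their level is not a count of chains.

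**Figure D5:**
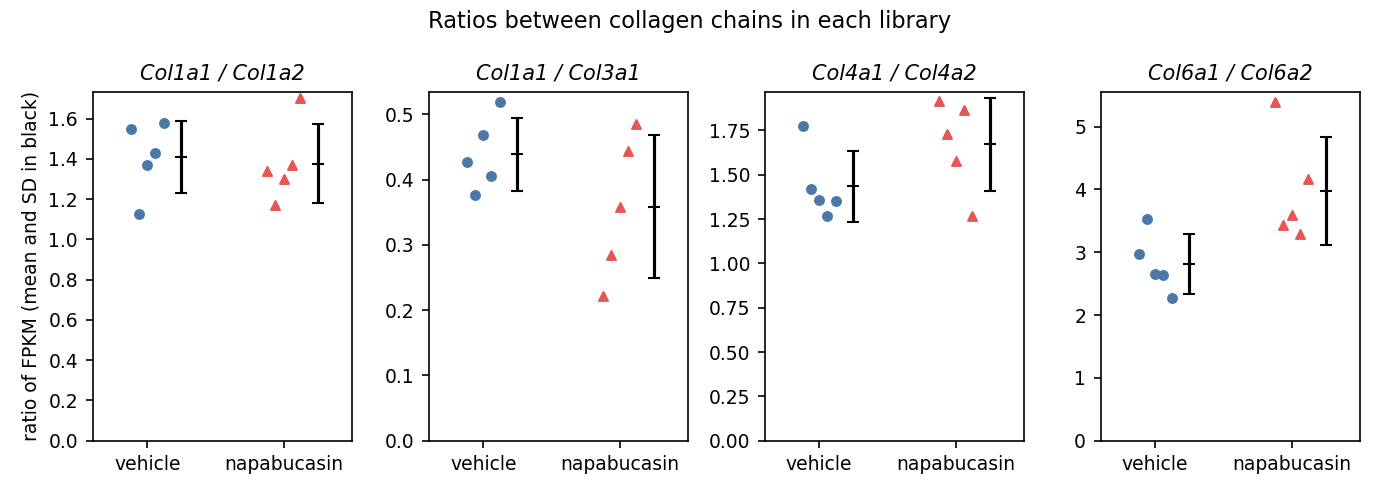
Ratio of FPKM for 4 pairs of collagen chains in each library, vehicle as circles and napabucasin as triangles, with mean and SD in black and axes from 0. The ratio of Col1a1 to Col1a2 spans 1.13 to 1.70 with both groups overlapping, and that of Col6a1 to Col6a2 is highest in napabucasin replicate 1 at 5.39.

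Among genes that modify, secrete and cross-link collagen a few lay higher at an unadjusted p under 0.05, none lay lower, and none passed the adjusted threshold. Newly made chains are hydroxylated and folded in the endoplasmic reticulum, trimmed outside the cell and joined by lysyl oxidases. Of 18 genes for modification and folding 15 were tested, 4 were higher at an unadjusted p under 0.05 and 0 lower, and the median log2 fold change was 0.20. They were Serpinh1, the collagen chaperone HSP47 (8.94 ± 3.65 against 16.8 ± 6.28 FPKM in vehicle and napabucasin livers, log2 fold change 0.92), P4ha1, a prolyl hydroxylase subunit (0.74), Plod3, a lysyl hydroxylase (0.34), and P3h3 (0.52). Over all genes tested 9.34% were higher by this criterion. For secretion and processing 1 of 7 tested genes was past it, near that share, namely Pcolce, the enhancer of procollagen C-proteinase (log2 fold change 0.65), with a list median of 0.45. The next by p were Pcolce2 (0.85), Adamts2 (0.45) and Adamts14 (0.50). Of 5 lysyl oxidases all lay on the higher side, and 1 had an unadjusted p under 0.05, Loxl3 (log2 fold change 1.22); Lox, Loxl4 and Loxl2 had 0.65, 0.67 and 0.42. Without napabucasin replicate 1, Loxl3 had 0.74 and Plod3 0.29, neither with an unadjusted p under 0.05. Without both replicate 1 libraries 1 of the 15 genes for modification and folding, Serpinh1, was higher at that p. In the same fit 2 of the 5 lysyl oxidases were, Loxl3 (0.90) and Loxl4 (1.18), where 7.44% of all genes tested were.

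Genes that break collagen down or sense it gave no call in the reported fit. Of 16 proteases and inhibitors 12 were tested and 0 had an unadjusted p under 0.05 in either direction, with a median log2 fold change of 0.02. The smallest p-values belonged to Mmp14, a membrane collagenase (log2 fold change -0.68), the inhibitor Timp1 (1.00), Mmp2 (0.53) and Mmp19 (-0.53). Without both replicate 1 libraries Timp1 had 1.23 (unadjusted p = 0.0466 by edgeR). It was the 1 gene of these 12 higher at that p, where 7.44% of all genes tested were. Of 9 collagen receptors 7 were tested with 0 calls and a median of 0.17; Itga10, Lair1, Itga2 and Itga1 had log2 fold changes of 0.97, 0.58, 0.38 and 0.17. Profibrotic signalling genes, 14 in all and all tested, likewise had 0 at an unadjusted p under 0.05 and a median of 0.07; Smad3, Tgfb1, Tgfbr1 and Smad7 had log2 fold changes of 0.27, 0.36, 0.18 and -0.20.

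Proteins that join collagens in the matrix lay higher in part. At an unadjusted p under 0.05, 6 of the 16 tested basement membrane partners were on the higher side and 2 on the lower. These partners bind the type IV network and had a median log2 fold change of 0.44. Over all genes tested 9.34% were higher and 5.83% lower by this criterion. The laminin chain Lama1 measured 0.598 ± 0.075 FPKM in vehicle and 1.24 ± 0.299 FPKM in napabucasin livers (SD, n = 5 each), without overlap and with a log2 fold change of 1.06 (adjusted p = 0.157 by edgeR, SE 0.21). Pxdn, the peroxidase that cross-links type IV collagen, had 0.84, and the laminin chains Lamb1 and Lamc1 had 0.76 and 0.58. The 2 on the lower side, named after their values were seen, were the laminin chains Lamb3 (-0.87) and Lamc3 (-0.69). Fibril partners had 5 of 12 higher and 0 lower, with a median of 0.49. The 5 were Postn (1.07), Tnc (0.99), Dcn (0.81), Eln (0.55) and Tnxb (0.53). Tnxb was named after its value was seen and had 0.28 without napabucasin replicate 1. Fn1, the fibril partner with the highest level, had -0.42 (120 ± 27.7 and 89.1 ± 15.9 FPKM). It had -0.52 without napabucasin replicate 1 (unadjusted p = 0.0447 by edgeR). Without both replicate 1 libraries it had -0.63 (unadjusted p = 0.0132 by edgeR). In each of these fits 1 fibril partner was lower at that p. Dcn measured 30.4 ± 2.87 and 53.0 ± 21.8 FPKM.

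Markers of stellate, endothelial and T and B cells had 2 or more genes higher at an unadjusted p under 0.05, and those of the other cell types 0 or 1. Over all genes tested 9.34% were higher and 5.83% lower by this criterion. In lists this short, 1 gene of 3 or of 6 is also above 9.34%, so such shares do not set cell types apart. In whole liver RNA, a change in the number of cells of a type and a change in RNA per cell cannot be told apart. Of 12 stellate cell markers all were tested, and 4 were higher at an unadjusted p under 0.05 (Pdgfrb, Lhx2, Reln and Hand2). By sign 10 lay higher and 2 lower. Cxcl12, with the highest level of the list, had a log2 fold change of -0.39 (44.0 ± 7.38 and 33.3 ± 10.1 FPKM). Des had 0.05 and Vipr1 -0.01. Summed stellate levels ran from 76.0 to 122 FPKM in vehicle and from 79.3 to 170 FPKM in napabucasin livers. Sinusoidal endothelial markers had 4 of 11 higher (Pecam1, Mrc1, Stab2 and Kdr) and sums of 22.6 to 68.8 and 55.9 to 88.1 FPKM; vascular endothelial markers had 2 of 6 tested higher (Plvap and Rspo3) and sums of 20.2 to 36.8 and 34.6 to 72.7 FPKM. Portal fibroblast markers, with 1 of 6 higher (Thy1), summed to 37.2 to 103 and 57.6 to 88.8 FPKM, and markers of myofibroblasts and smooth muscle, with 1 of 3 higher (Myh11), to 5.05 to 7.85 and 5.40 to 10.7 FPKM. Most of the portal fibroblast sum was Gas6, with means of 68.3 and 59.7 FPKM and a log2 fold change of -0.19. By sign 4 of the 6 tested portal fibroblast markers lay higher and 2 lower. Most of the cholangiocyte sum below was Spp1, with means of 203 and 196 FPKM. Kupffer cell markers had 1 of 6 higher (Clec4f) and sums of 107 to 593 and 210 to 830 FPKM. The T and B cell markers had 9 of 10 higher and sums that did not overlap, 9.82 to 14.2 and 22.2 to 34.4 FPKM. Cholangiocyte markers had 0 of 8 higher and 1 lower (Tspan8), with sums of 130 to 285 and 157 to 260 FPKM, mesothelial markers 0 of 2 tested, with sums of 1.12 to 2.54 and 0.754 to 2.68 FPKM, and hepatocyte markers 0 of 10 higher and 2 lower (Cebpa and Cps1), with sums of 20697 to 74143 and 34701 to 63325 FPKM. No marker of these lists was at 0 in all libraries, and the markers are named by their unadjusted p after their values were seen. Cxcl12, Des, Vipr1, Gas6 and Spp1 were likewise named after their values were seen. Without napabucasin replicate 1, the counts on the higher side were 3 for stellate, 3 for sinusoidal and 2 for vascular endothelial markers, 10 for T and B cells, 2 for myofibroblasts and 0 for portal fibroblasts and Kupffer cells, where 5.88% of all genes tested were higher. The part of these cell types in the collagen differences was not tested.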

How the data were processed

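Libraries from whole liver RNA of 10 mice were made after poly-A selection, per the labels' protocols. The authors' counts, whole reads for each gene, came from CASAVA, HISAT2 2.0.5 and featureCounts 1.5.0-p3 on GRCm38 (mm10), per the submitters' processing notes. Neither strand setting nor annotation release is stated in the labels. FPKM was also deposited; in each library it equals the count over gene length times 1 constant, checked on the values. The authors' group means were not used. No 2 libraries were duplicates: counts differed in at least 20256 genes.

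The main test was that of edgeR 4.0.16 under R 4.3.3 (filterByExpr, TMM, robust quasi-likelihood F test, treatment as the only term) over 14244 genes, with Benjamini-Hochberg adjustment and a threshold of 0.05. The common biological coefficient of variation was 0.325. Standard errors and 95% intervals come from the F statistic. Alternatives used DESeq2 1.42.0, limma 3.58.1, other scalings, filters and pseudocounts, a replicate block and each library left out. Same-numbered libraries deviated together (correlations of 0.154, 0.227, 0.208, 0.270 and 0.278 for numbers 1 to 5), a hint of pairing from the data alone. The reported fit and the ratio tests are unpaired, and the replicate block is an alternative.

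Members and lists were chosen with earlier results of these data known. Collagens are named where their mean is at least 1 CPM or their unadjusted p is under 0.05, and pathway lists by their 4 smallest p-values. Lamb3, Lamc3, Tnxb, Fn1, Col6a5, Col6a6, Sox9, Hapln1, Acan and Comp were added after their values were seen, as were the untested collagens. Other scalings of the levels, and lists without the replicate 1 libraries, were also added after seeing the data. In a test on simulated data for this comparison 14057 genes passed the filter. Of those that passed, edgeR recovered 4 of 50 given a 1.5-fold difference, 20 of 50 given 2-fold and 45 of 45 given 4-fold. It also picked 7 genes given none. Every simulated gene had the common coefficient of variation of 0.325, so the test does not show the recovery of genes that vary more.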

Additional observations from a re-analysis of the deposited data

Results flagged for a closer look

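Among 64 groups of 5 values examined, 10 held 1 library whose distance to its nearest neighbour exceeded 0.71 of the group's range. About 3.2 would be found by chance if values were normally distributed and the groups independent. The groups share libraries and genes, so 3.2 is a rough guide and no test. Napabucasin replicate 1 was high in 4 of the 10. It measured 4.01 FPKM of Col20a1 against 0.297 to 1.24 in the other napabucasin libraries, 1.25 FPKM of Col13a1 against 0.276 to 0.541, 1.32 FPKM of Col16a1 against 0.697 to 0.874, and 0.511 FPKM of Col12a1 against 0.114 to 0.229. Vehicle replicate 1 was high in Col27a1, at 1.89 FPKM against 0.668 to 0.970, and in Col20a1, at 1.45 FPKM against 0.227 to 0.536. These 2 libraries held the highest mitochondrial shares, 19.9% and 19.0%.

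Replicate 4 of each group was high in Col4a2. The vehicle library measured 4.52 FPKM against 2.32 to 2.80 in the other vehicle libraries, and the napabucasin library 5.37 FPKM against 3.95 to 4.20. Napabucasin replicate 4 was also high in Col6a2, at 1.73 FPKM against 0.898 to 1.09. Vehicle replicate 2 was low in Col4a4, at 0.0847 FPKM against 0.134 to 0.153. No cause was tested for any of these values.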

How the results depend on the processing

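Single collagens kept their sign and their side of the adjusted threshold in 543 of 564 values under alternatives, over the 24 collagens named by rule; 2 passed the threshold, Col14a1 and Col27a1, both with DESeq2, and 19 values over 6 genes changed sign, none of them from a gene with an unadjusted p under 0.05. The genes were Col4a5 (-0.11 with limma-voom, -0.10 without napabucasin replicate 1, -0.13 with the mitochondrial covariate), Col6a2 (-0.060 with limma-voom, -0.053 without napabucasin replicate 4 to 0.32 without vehicle replicate 4), Col4a3 (-0.0061 with log2(FPKM + 1) unfiltered, -0.16 with the replicate block, -0.73 to 0.29 with 1 library left out, negative without vehicle replicates 2 (-0.14), 4 (-0.14) and 5 (-0.07) and napabucasin replicate 3), Col18a1 (-0.01 without vehicle replicate 2, -0.080 without napabucasin replicate 1 to 0.27 without napabucasin replicate 4, -0.11 with the covariate), Col15a1 (0.073 when vehicle replicate 3 was left out, 0.01 when napabucasin replicate 5 was, and -0.23 at the lowest) and Col12a1 (-0.26 without napabucasin replicate 1 to 0.48 without napabucasin replicate 4, -0.15 without both replicate 1 libraries, -0.18 with the covariate). The cause was not tested. Genes with an unadjusted p under 0.05 were chosen in the fit of all libraries, so their kept sign is not separate support.

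Collagens higher at an unadjusted p under 0.05 numbered 8 with limma-voom and 11 (without vehicle replicate 5) to 16 (without vehicle replicate 1 or napabucasin replicate 3) with 1 library left out. In each 0 were lower, and unfiltered 2 were lower. The shares of all genes tested on the higher side were 11.3% with limma-voom and 11.8% with the replicate block. They were 5.97% without vehicle replicate 5, 9.65% without vehicle replicate 1 and 9.66% without napabucasin replicate 3. The replicate block gave 16 higher, 0 lower and 0 genes past the adjusted threshold, and it kept 14 of the 15 (all but Col11a2, 0.91) and gained Col1a1 (0.51) and Col20a1 (0.85); it changed no call at the adjusted threshold. Collagens past the adjusted threshold were 2 with DESeq2 and 0 in every fit with 1 library left out. Over all genes the threshold was passed by 242 with DESeq2, 132 with limma-voom, 19 unfiltered, 7 without both replicate 1 libraries, 1 with library size only and 1 with log2(FPKM + 0.1), and by 0 to 18 (without vehicle replicate 1) with 1 library left out. Library size as the only scaling put 79.6% of genes at an unadjusted p under 0.05 on the higher side, where the reported fit put 61.6%, limma-voom 50.8%, and without vehicle replicate 1 53.9%.

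The fibrillar median ran from 0.65 to 0.91 with 1 library left out and was 0.34 with log2(FPKM + 1) unfiltered. The type IV median ran from 0.02 (without napabucasin replicate 5) to 0.29 and was 0.53 with log2(FPKM + 0.1), where 3 genes passed. The median of other collagens ran from 0.23 (without napabucasin replicate 1) to 0.66 and was 0.38 unfiltered, 0.41 with limma-voom, 0.35 with log2(FPKM + 1), 0.029 with that unfiltered and 0.23 with the covariate. The log2 difference of the Col6a1 to Col6a2 ratio ran from 0.37 to 0.58 with 1 library left out and passed adjustment only without vehicle replicate 2 (0.58, exact permutation p = 0.0079). That of Col1a1 to Col1a2 ran from -0.12 to 0.019, positive when vehicle replicate 5 (0.01) or napabucasin replicate 2 (0.019) was left out. For Col1a1 to Col3a1 it ran from -0.46 to -0.18 and for Col4a1 to Col4a2 from 0.16 to 0.31.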

Other observations

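Among collagens below the filter on low counts, 3 with a read total of 80 to 130 stood high in 1 library. Col24a1, a fibrillar collagen, had 49 of its 130 reads in napabucasin replicate 2, Col7a1, the anchoring fibril collagen, had 42 of 97 in napabucasin replicate 1, and Col8a1 had 36 of 80 in napabucasin replicate 4. Col25a1 had 41 reads in vehicle and 7 in napabucasin livers. Col10a1, with 10 reads, lies within Nt5dc1 on the other strand, which had 3592, and without strand those reads cannot be told apart. These genes were chosen after their values were seen.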
